A study of Mus musculus with 3 samples.

Results

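Polyamine synthesis and hypusination genes were examined by RNA sequencing in mouse Th1 cells, the interferon-gamma-producing subset of CD4 helper T cells. The 10 genes were chosen by name, from 50600 genes in the count tables: Odc1, Azin1, Oaz1, Oaz2, Amd1, Srm, Sms, Sat1, Dhps and Dohh. Each symbol matched 1 gene identifier. The series holds 3 libraries of 1 group, numbered as biological replicates 1, 2 and 3. They come from primary cells of strain C57BL/6NJ, with the sex not collected and the age unknown, and a linked protocol covers the differentiation of CD4+ T cells. All 3 share a donor entry, and the labels do not say that they came from separate animals, so the spread below is between these samples and may be technical. The file headers name a time point of 2 hours, without saying from which event. There was no untreated or other cell group, so levels are described, genes are set against each other within a library, and replicates are set against each other.

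Polyamines are small positively charged molecules that proliferating cells need for nucleic acid binding and translation. Ornithine decarboxylase, encoded by Odc1, makes putrescine from ornithine. Spermidine synthase (Srm) and spermine synthase (Sms) then add aminopropyl groups that come from S-adenosylmethionine through the decarboxylase Amd1. Antizymes, of which Oaz1 and Oaz2 are widely expressed members, bind ornithine decarboxylase and send it to the proteasome, and the antizyme inhibitor Azin1 binds antizyme in its place. Sat1 acetylates spermidine and spermine for breakdown or export. Spermidine also gives up part of itself to a lysine of the translation factor eIF5A, through deoxyhypusine synthase (Dhps) and deoxyhypusine hydroxylase (Dohh), which together form the amino acid hypusine. Activated T cells are known to raise polyamine synthesis under the transcription factor Myc.

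Antizyme messages carry a stop codon inside the reading frame, which the ribosome passes by shifting frame, more often when polyamines are abundant. The stretches around that codon are shown for the antizymes of these libraries, because the site marks the family and is the point where polyamines act on it. The letters come from GENCODE vM21 transcripts on mm10, and the capitals mark the stop codon. They lie at chr10:80828271-80828321 (plus strand), chr9:65686248-65686298 (plus) and chr3:94436008-94436058 (minus), all inside the protein-coding part of the messages.
Oaz1: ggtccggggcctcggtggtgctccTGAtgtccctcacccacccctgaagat
Oaz2: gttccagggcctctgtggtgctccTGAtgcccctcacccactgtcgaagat
Oaz3: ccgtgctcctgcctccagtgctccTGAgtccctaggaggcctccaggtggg
All 3 stretches hold the same run of letters, gtgctcc, directly before the stop codon. Over the whole coding sequence, Oaz1 and Oaz2 were identical at 66.0% of 564 aligned bases, and Odc1 and its homologue Azin1 at 61.6% of 1332.

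The codon that becomes hypusine is shown for both eIF5A genes, since it is the only known substrate site of Dhps and Dohh. The capitals mark the lysine codon, codon 50 in each gene, at chr11:69919151-69919183 (minus strand) and chr3:28782184-28782216 (plus strand).
Eif5a: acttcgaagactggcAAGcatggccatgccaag
Eif5a2: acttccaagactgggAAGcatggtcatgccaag
The windows of 33 bases differed at 3 positions, counted from 1 at the 5′ end, with the Eif5a base written first: G6C, C15G and C24T. The lysine codon itself was the same.

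Total counts were 4442901, 3123869 and 2950658 in replicates 1, 2 and 3, of which the 10 genes held 6471, 2166 and 2736. Levels are given in TPM, counts per exon base scaled to the same total over all genes in each library, which allows genes of different length to be compared. All 8 markers of CD4 T cells reached 1 TPM in every library, with a summed level of 1631 to 3809 TPM. Ms4a1, Cd22, S100a9, Lyz2 and Hba-a1, markers of B cells, macrophages or neutrophils, and red cells, had no count. Of these, Ms4a1 and Cd22 overlap a gene of the other strand. Summed levels of those other marker lists were 27.0 to 48.7 TPM for B cells, with the counts on Cd79a, 137 to 181 for macrophages and neutrophils, nearly all on Csf1r, which has a gene opposite, and 2.09 to 6.62 for erythroid cells. Cd8a had at most 2 counts in any library, and the cytotoxic list summed to 3.97 to 10.7 TPM, nearly all of it on the list's other gene.

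A caution on strand applies to every level given here, those of the markers included. Pairs were counted under strand setting 1, per the file headers, towards the gene whose strand the first read matched. The mitochondrial gene mt-Nd6, encoded on the other strand from the remaining mitochondrial mRNAs, had 28050, 23330 and 36100 TPM, while those 12 had medians of 600.3, 352 and 296 TPM. Genes with exons opposite those of another gene held 55.1%, 69.1% and 67.3% of counts. Whether the setting was opposite to the library was not tested. If it was, a level given here counts only the minor share of a gene's own reads. For a gene with exons opposite those of another, it may also count reads of that other gene. The comparison of genes then holds only as far as these shares are alike between them.

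Of the 10 genes, 9 overlapped no gene of the other strand anywhere in their span, and such genes are called unopposed. Dhps was the exception, and across all 21764 protein-coding genes 22.1% had exons opposed in this way. The last 128 exon bases of Dhps, 5.51% of its exons, lie opposite exons of Wdr83, a gene for a WD-repeat protein. Wdr83 had 1101, 1089 and 970 counts where Dhps had 228, 93 and 121. In TPM, Wdr83 had 178.5, 206 and 203 and was lowest in replicate 1, the library in which Dhps was highest. The part of Wdr83 reads in the level of Dhps, or of Dhps reads in that of Wdr83, was not tested.

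**Figure D1:**
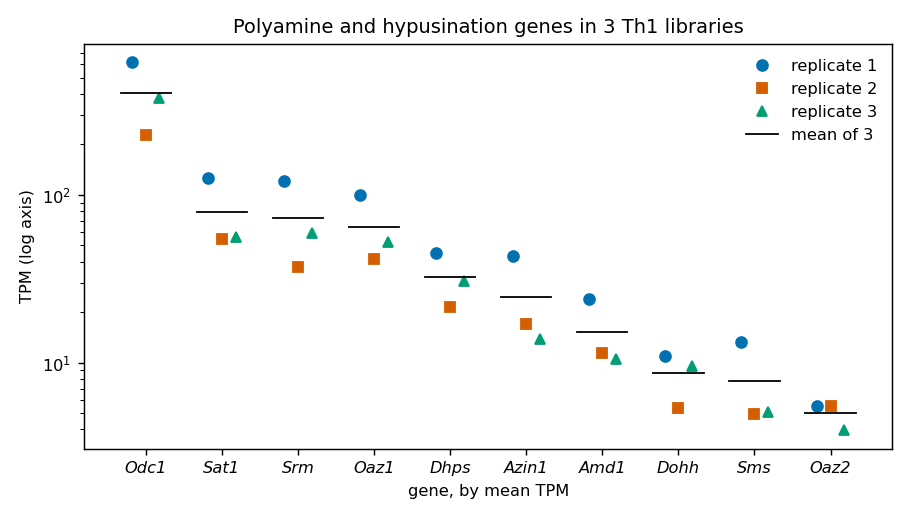
TPM on a log axis of each polyamine and hypusination gene in replicates 1, 2 and 3 (points) with their mean (black line), ordered by mean. Odc1 stands above all the others in every library, and replicate 1 is the highest library for 9 of the 10 genes, Oaz2 excepted.

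Odc1, the first enzyme of the pathway (chromosome 12, 17544873 to 17551502, plus strand), was by far the most abundant member. It had 3435, 1085 and 1629 counts in replicates 1, 2 and 3, or 616, 227 and 377 TPM. Its mean of 407 ± 196 TPM (SD, n = 3) lay above 99.4% of protein-coding genes and above 99.5% of the unopposed ones. Myc, a known activator of Odc1, had a like level at 531, 243 and 371 TPM, and its partner Max had 43.7, 23.4 and 24.4 TPM. In each of these genes replicate 1 was the highest library, and in each replicate 2 was the lowest. This order was common. Of the 4272 unopposed genes tested for spread below, 91.4% were highest in replicate 1 and 63.5% were higher in replicate 3 than in 2. Max differed little between those 2 libraries, at 1.04-fold.

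Oaz1, Oaz2 and the inhibitor Azin1 were far lower than Odc1. Oaz1 (chromosome 10, 80826656 to 80829290) had 560, 198 and 226 counts, or 100, 41.3 and 52.0 TPM, a mean of 64.4 ± 31.3 TPM (SD, n = 3). Oaz2 (chromosome 9, 65668001 to 65690300) had only 36, 31 and 20 counts, or 5.50, 5.53 and 3.94 TPM, and was nearly level between replicates 1 and 2. Azin1 (chromosome 15, 38487430 to 38519266) had 586, 199 and 147 counts, or 43.0, 17.0 and 13.9 TPM. Its mean of 24.6 ± 15.96 TPM (SD, n = 3) rests on replicate 1, and was 15.5 TPM without it.

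Within each library Odc1 exceeded Oaz1, Azin1 lay below Oaz1, and Oaz2 lay far below Oaz1. The log2 ratio of Odc1 to Oaz1 was 2.62, 2.46 and 2.86, with an average of 2.65 ± 0.20 (SD, n = 3). From summed counts of 6149 and 984 the ratio per exon base was 6.28, with a 95% Clopper-Pearson interval of 5.87 to 6.72 that covers counting error only. The ratio of Odc1 to Azin1 was 14.3-fold, 13.3-fold and 27.1-fold, highest in replicate 3. In TPM, Odc1 was 1.66-fold and Azin1 0.816-fold in replicate 3 relative to replicate 2. Azin1 to Oaz1 had a log2 ratio of -1.47 ± 0.38, and Oaz2 to Oaz1 one of -3.60 ± 0.65, where the 0.134-fold ratio of replicate 2 was more than the 0.0550-fold of replicate 1. The place of Azin1 below Oaz1 rests on its longer exons, 6231 bases against 2558, since its counts were the higher in replicates 1 and 2. Of the 9 pairs of genes compared in all, 8 kept the sign of their ratio in all 3 libraries, these 4 among them. Each of the 8 had p = 0.25 by exact sign-flipping over libraries (two-sided), the smallest that 3 libraries allow, and a Benjamini-Hochberg adjusted p of 0.281 over the 9 pairs.

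**Figure D2:**
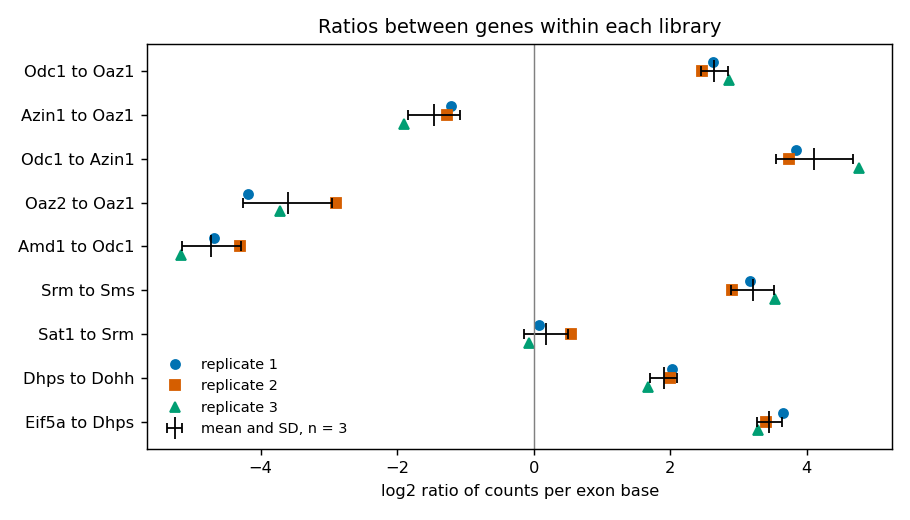
Log2 ratios of counts per exon base for 9 pairs of genes in replicates 1, 2 and 3 (coloured points), with the mean and SD (black, n = 3) and a grey line at equal levels. The points of each pair lie on the same side of that line in every library, apart from Sat1 to Srm.

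Among the later synthesis enzymes, spermidine synthase stood well above spermine synthase. Srm (chromosome 4, 148591503 to 148594993) had 421, 112 and 161 counts, or 120.3, 37.3 and 59.3 TPM, a mean of 72.3 ± 43.0 TPM (SD, n = 3). Sms (chromosome X, 157443855 to 157492287) had 175, 56 and 52 counts, or 13.3, 4.97 and 5.10 TPM. Replicate 1 was the highest library for both, and without it the mean of Sms was 5.03 TPM in place of 7.79. The log2 ratio of Srm to Sms was 3.18, 2.91 and 3.54 in the 3 libraries, with a ratio per exon base of 9.22 (interval 8.02 to 10.6).

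Amd1, which supplies the aminopropyl donor to both synthases (chromosome 10, 40287458 to 40302186), had 185, 76 and 63 counts. In TPM it had 23.9, 11.4 and 10.5, and its log2 ratio to Odc1 was -4.72 ± 0.43 (SD, n = 3). This level is uncertain. Of the 3539 different 50-base words in Amd1 transcripts, 78.1% also occur in transcripts of other annotated genes, and 76.7% in Amd2, a near copy. Amd2 had 4, 0 and 0 counts, and the 5 pseudogenes named Amd-ps had 4 counts in sum. The counting command sets no option to include reads that map to several places, and how many reads of Amd1 were set aside was not tested.

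Shared sequence was smaller in the other members, as the bar chart of shared words shows. It was 45.3% in Dohh, 24.3% in Odc1, 21.0% in Oaz1 and 17.5% in Sms. In Dohh all of it was with Gm48551, which is not among the genes counted and so has no level here. Whether Gm48551 lies at the place of Dohh was not examined. In Odc1 the words are spread over 16 other genes, and among the processed pseudogenes sharing most of them Gm15470 had the most counts, with 53, 65 and 54. In Oaz1 most are shared with the pseudogene Oaz1-ps, which had 8, 2 and 4 counts, and in Sms with Sms-ps, which had 10, 5 and 5. Oaz2-ps had 4, 10 and 3 counts, so adding them would raise the mean of Oaz2 from 4.99 to 5.98 TPM. Sat1, Srm, Dhps, Azin1 and Oaz2 each shared under 8% of their words.

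**Figure D3:**
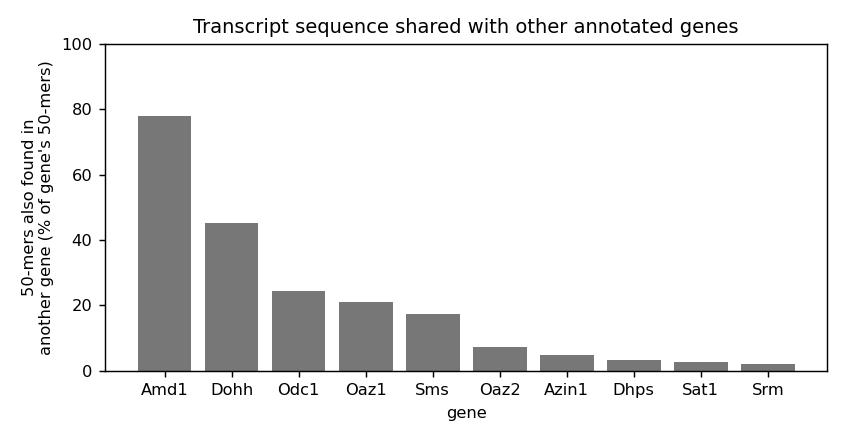
Share of each gene's different 50-base words that also occur, on either strand, in a transcript of another gene of GENCODE vM21 (bars, % of the gene's words, axis from 0). Amd1 stands highest at 78.1%, followed by Dohh at 45.3%, while Srm is lowest at 2.01%.

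Sat1, the acetyltransferase that starts polyamine breakdown, had a level near that of the synthesis enzyme Srm. It lies on chromosome X (155213132 to 155216449) and had 768, 284 and 265 counts, or 126.5, 54.6 and 56.3 TPM, with a mean of 79.1 ± 41.1 TPM (SD, n = 3). The log2 ratio of Sat1 to Srm was 0.07, 0.55 and -0.08 in replicates 1, 2 and 3. Those values lie on both sides of 0, with p = 0.75 by the same exact test, and the ratio of summed counts per exon base was 1.09 (interval 0.997 to 1.20). The level of Sat1 was thus not told apart from that of Srm beyond the spread between libraries.

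Both hypusination enzymes were counted at lower levels than the factor they modify. Dhps (chromosome 8, 85071757 to 85075162) had 44.8, 21.3 and 30.7 TPM, a mean of 32.3 ± 11.8 TPM (SD, n = 3). Dohh (chromosome 10, 81384428 to 81391560) had 77, 32 and 52 counts, or 10.99, 5.33 and 9.57 TPM. Dhps exceeded Dohh 4.08-fold, 4.00-fold and 3.21-fold, with a log2 mean of 1.90 ± 0.19 (SD, n = 3). Eif5a, the gene of the modified factor, had 566, 226 and 301 TPM, at a log2 ratio to Dhps of 3.45 ± 0.19 (SD, n = 3). Eif5a2, its homologue, had 22, 10 and 5 counts, or 1.22 ± 0.72 TPM (SD, n = 3).

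In order of mean TPM the members ran Odc1, Sat1, Srm, Oaz1, Dhps, Azin1, Amd1, Dohh, Sms and Oaz2. Of the 9 pairs of neighbours in that order, 4 differed with the same sign in all 3 libraries and by more than the SD of the log2 difference. These were Odc1 over Sat1, Oaz1 over Dhps, Azin1 over Amd1 and Amd1 over Dohh, the last of which did not hold without replicate 1 or without replicate 2. The limits given above for Amd1 and Dohh (shared sequence) and for Dhps (a gene opposite) apply to their places in this order too. The other 5 pairs of neighbours did not differ beyond their spread. Among them, Dhps over Azin1 passed without replicate 1 or 3, and Srm over Oaz1 and Sms over Oaz2 passed without replicate 2.

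Compared with all annotated protein-coding genes, many of them without a count, the set was abundant. All 10 members reached 1 TPM in every library, against 38.7% of protein-coding genes and 32.0% of the unopposed ones. A level of 10 TPM in every library was reached by 7 members, against 17.0% and 12.8%, the others being Oaz2, Sms and Dohh. The median of the members was 43.9, 19.2 and 22.3 TPM, against 0.303, 0.252 and 0.201 TPM over all protein-coding genes. Of those 21764 genes, 10873 had at most 3 counts in every library, 8832 of them none. Many genes in this comparison were thus not detected or barely so. The members were chosen with earlier results of these data known, so these shares are a description.

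Replicate 1 was the highest library in TPM for 9 of the 10 members, but this was so for most genes. It was the highest library for 70.9% of the 9469 genes tested and for 91.4% of the 4272 unopposed genes tested. The median unopposed gene was 1.91-fold higher in replicate 1 than in replicate 2 and 1.70-fold higher than in replicate 3, while members had medians of 2.37-fold and 1.98-fold. Genes with exons opposed had medians of 1.21-fold and 1.09-fold. Their larger share of counts in replicates 2 and 3, given above, moved with this difference, and its part in the levels of the members was not tested. In bulk libraries, fewer cells of a type and less RNA per cell cannot be told apart either. Ratios within a library do not depend on this scale.

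The libraries also differed in which members were high. Srm was 3.22-fold higher in replicate 1 than in replicate 2, Odc1 2.71-fold and Sms 2.68-fold, while Oaz2 was at 0.995-fold. Between replicates 3 and 2, where the median unopposed gene had a ratio of 1.11, Dohh had 1.80, Odc1 1.66, Srm 1.59 and Dhps 1.44, and Myc had 1.53. Sat1 and Sms had 1.03 each, Amd1 0.916, Azin1 0.816 and Oaz2 0.713, and Max, the partner of Myc, had 1.04. This division into members higher in replicate 3 and members not was noted after the values were seen, and was not tested as such. Between replicates 2 and 3 alone, only Odc1 and Srm varied more than counting noise, by the chi-square test given below.

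After TMM scaling, which sets the bulk of genes to be equal between libraries, 7 of 10 members still varied more than counting noise (chi-square test with 2 degrees of freedom, one-sided, Benjamini-Hochberg over all genes tested). The background was 59.6% of all genes tested, so 7 of 10 is near what genes in general showed. Odc1 had an adjusted p of 3.81e-55 in that chi-square test and a range of 1.73-fold, and Azin1 one of 5.36e-18 and a range of 2.09-fold. Srm, with a range of 2.06-fold, Sat1, Oaz1, Sms and Amd1 also passed. Dhps, Dohh and Oaz2 did not pass, with adjusted p of 0.0597, 0.0872 and 0.202 in the chi-square test and ranges of 1.36-fold, 1.70-fold and 1.57-fold.

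Without replicate 1, 2 of 10 members passed and 25.6% of all genes tested, so that the count of members again lay near the share of genes in general. The members that passed were Odc1 (adjusted p = 2.11e-30, chi-square test) and Srm (adjusted p = 0.00412). Without replicate 2, 7 members passed against 42.4% of genes, and without replicate 3, 6 members against 47.3%. Among unopposed genes only, an alternative added after the counts had been seen, 6 of 9 members passed, against 36.0% of such genes. Amd1 did not, with an adjusted p of 0.285 in the chi-square test. In that test the 6 that passed had a larger adjusted p than over all genes. It was 8.96e-27 for Odc1, 0.00105 for Sat1 and 0.0395 for Oaz1. Dohh and Oaz2 had a smaller one, 0.08 and 0.0645, and did not pass.

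None of the 10 members passed the test for more spread than genes of like abundance. The edgeR trend test, with Benjamini-Hochberg adjustment, called 0 members and 0.253% of all genes tested. At an unadjusted p under 0.05 it also called 0 members, against 6.44% of all genes tested. The same test with DESeq2 dispersions called 0 members and 0.18% of genes after adjustment. With shares this low, 0 of 10 is near what genes in general showed. Azin1 had the lowest unadjusted p of the members, 0.142 by edgeR. Their log2 ranges over the libraries ran from 0.44 in Dhps to 1.06 in Azin1, within the 10th to 90th percentile of unopposed genes, which was 0.21 to 1.10 with a median of 0.55.

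**Figure D4:**
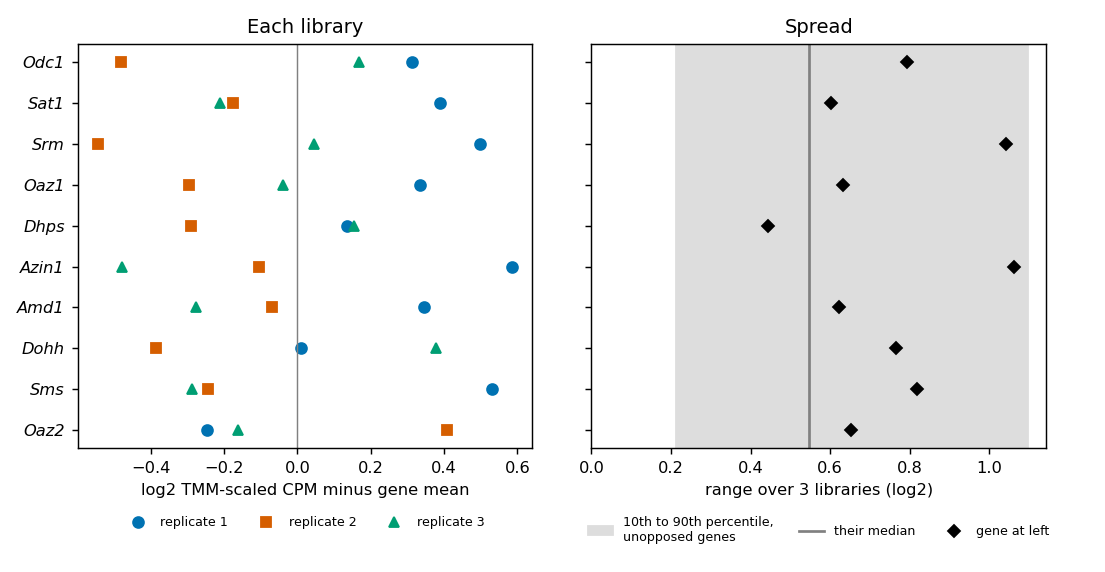
Left, log2 TMM-scaled CPM of each member in each replicate minus the gene's mean over the 3 libraries. Right, the range over the libraries (diamonds) beside the 10th to 90th percentile (grey band) and median (line) of unopposed genes tested, with all members inside the band and Azin1 and Srm nearest its upper end.

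The other genes of polyamine and methionine metabolism, a list of 26 with Myc and Max, ranged from the level of Odc1 to no count. Of the 26, 17 reached 1 TPM and 10 reached 10 TPM in every library, against 38.7% and 17.0% of protein-coding genes. Their medians were 9.80, 4.25 and 4.70 TPM. Of the 19 unopposed genes among them, 12 and 7 did so, against 32.0% and 12.8% of unopposed protein-coding genes. The medians of these 19 were 5.33, 4.07 and 4.00 TPM. For 5 of the 26, Azin2, Sat2, Slc18b1, Slc12a8 and Mat1a, no library had a count, as for 8832 of 21764 protein-coding genes. By counting error alone and at a limit of 3 counts, this allows Azin2, the second antizyme inhibitor, up to 0.341, 0.397 and 0.439 TPM in replicates 1, 2 and 3, and Sat2, a relative of Sat1, up to 0.963, 1.12 and 1.24. The caution on strand applies to these limits too.

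Of the list's oxidases, Smox, which turns spermine back to spermidine, had 44.6, 19.6 and 32.8 TPM, and Paox, the peroxisomal oxidase of acetylated polyamines, had 7, 8 and 1 counts. Smox was thus at about the level of Dhps, and Paox, which has a gene opposite, near the limit of detection. Atp13a3, a polyamine transporter, had 33.9, 18.5 and 15.1 TPM, and its relative Atp13a2 1.68, 0.7996 and 0.982.

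Upstream of Odc1, the arginine transporter Slc7a1 had 51.8, 24.4 and 27.5 TPM. Arg2, the mitochondrial arginase, had 18.2, 12.7 and 9.90 TPM with exons opposed by Vti1b, and Arg1, the cytosolic arginase, had 12, 17 and 16 counts. Oat, which links ornithine to glutamate and proline, had 29.6, 17.9 and 15.5 TPM. Arg1 was the member of this group that was lowest in replicate 1, at 2.46 TPM against 4.07 and 4.23.

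Of the genes that make and recycle S-adenosylmethionine, Mat2a, the catalytic subunit of the methionine adenosyltransferase outside liver, had 228, 105.2 and 105.3 TPM. Its regulatory subunit Mat2b had 7.40, 3.09 and 4.00 TPM, and the liver enzyme Mat1a no count. Particl, a transcript opposite 11.3% of Mat2a exons, had 1613, 2548 and 2066 TPM, many times the counted level of Mat2a. The part of reads of either gene in the level of the other was not tested, and both levels are uncertain. The salvage enzymes of methylthioadenosine, the by-product of both aminopropyl steps, ran from 30.0 ± 17.2 TPM for Mtap (SD, n = 3) and 10.1 ± 4.09 for Mri1 to 7.21 ± 4.35 for Enoph1, 3.92 ± 1.60 for Adi1 and 2.51 ± 1.53 for Apip.

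Oaz3 was counted at a higher level than the other antizymes. Known as a testis antizyme, it had 1192, 1630 and 1165 counts, or 126, 201 and 159 TPM, above Oaz1 in every library and lowest in replicate 1. Of its exon bases, 52.1% lie opposite exons of Tdrkh and 3.63% opposite Mrpl9, a mitochondrial ribosomal protein gene. Tdrkh had 46, 19 and 13 counts and Mrpl9 304, 158 and 133. The part of reads from these neighbours in the level of Oaz3 was not tested, and its counts are uncertain.

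**Figure D5:**
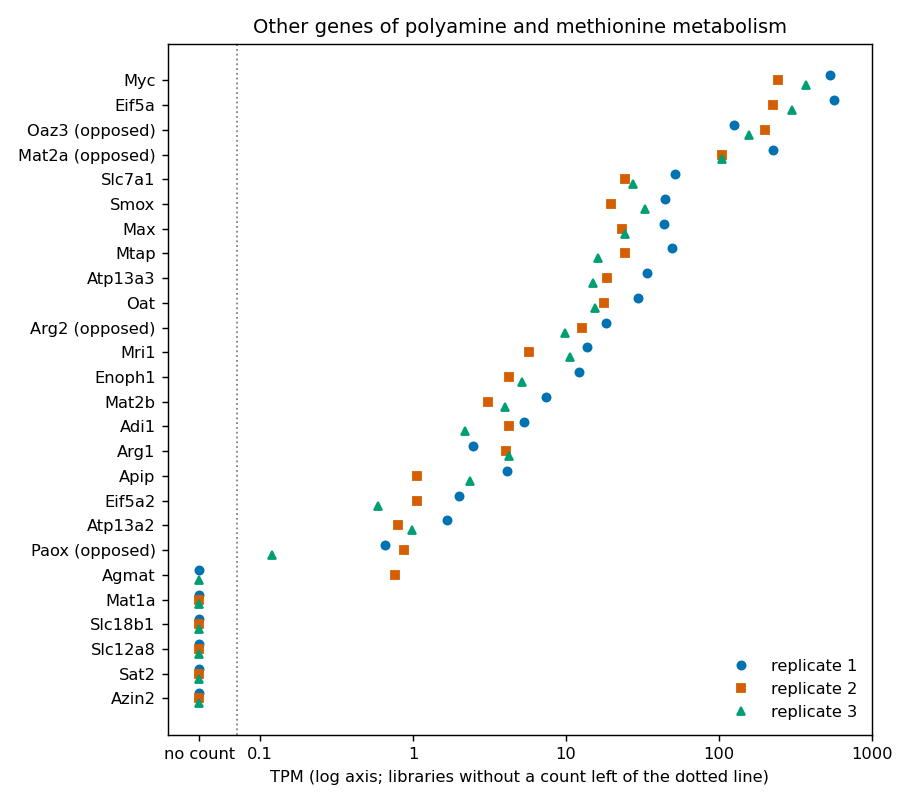
TPM on a log axis of the 26 other pathway genes in replicates 1, 2 and 3, ordered by mean, with libraries without a count drawn left of the dotted line and genes with opposed exons marked. Myc and Eif5a stand highest, and the 5 lowest genes have no count in any library.

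Promoter windows were searched for CACGTG, the E-box bound by Myc and Max, which reads the same on both strands. RefSeq windows on GRCm38.p6, each of 300 bases around the annotated start, were given for 8 of the 10 members. Of these, Dohh and 1 of 2 windows of Sms held the letters, and Odc1 did not, while 7.15% of 32851 windows of all genes did. A match or its absence describes these letters in these windows only.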

How the data were processed

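RNA was sequenced from 3 Th1 libraries. Per the file headers, the authors aligned stranded read pairs in a step named star2 and made raw counts per gene with featureCounts 1.4.6-p4 over GENCODE vM13 exons, with both reads aligned and strand setting 1. The deposited counts carry no normalization. The labels name mm10, call the assay total RNA-seq and link a protocol named for poly(A)+ RNA.

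TPM was computed here from the deposited counts and exon lengths, over all 50600 genes, of which 50376 had a symbol. Opposite-strand overlap came from the files' coordinates with bedtools 2.31.1. Spread was fitted over all genes in edgeR 4.0.16 (R 4.3.3) with TMM, an intercept-only design and filterByExpr at a minimum count of 10, leaving 9469 genes. Tests were adjusted by Benjamini-Hochberg at 0.05 and were first tested on simulated data. DESeq2 1.42.0 served as an alternative. Intervals are exact Clopper-Pearson at 95%, and intervals and limits cover counting error only. Sequence words were of 50 bases.

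The members, the pathway list and the tests were chosen with earlier results of these data known. All members were named in the text, genes opposite them were those with the most overlapping exon bases, and copies were those with a member's symbol followed by ps, and Amd2. Genes sharing sequence, such as Gm15470 and Gm48551, were named after their values were seen. Some marker genes are not reported here.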

Additional observations from a re-analysis of the deposited data

How the results depend on the processing

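The median level of the members was 28.45 ± 13.47 TPM (SD, n = 3), 50.4 in CPM and 67.5 TPM over protein-coding genes alone, both by their scale's construction. With mitochondrial and rRNA genes left out, with TMM factors or with copies added it stayed within 1 SD, and without a replicate it was 20.7 to 33.1. The count of members at 10 TPM was within 1.5 times under every alternative tried. Of 54 alternative values of the 9 ratios, 53 kept the direction of their mean, and Sat1 to Srm turned to -0.002 on the log2 scale without replicate 2 (up to 0.31 without another replicate). Without the length correction the log2 ratio of Azin1 to Oaz1 was -0.18 (exact sign-flip p = 1.0), with Azin1 the higher in replicates 1 and 2, that of Srm to Sms 1.30 and of Sat1 to Srm 0.98. The number of members beyond counting noise was 2, 7 and 6 without replicates 1, 2 and 3, against 25.6%, 42.4% and 47.3% of genes tested. Over all genes that number was 5642 of 9469, 1536 of 4272 among unopposed genes only, and 2476 to 4816 without a replicate. Genes beyond the edgeR trend numbered 24, 44 without the filter, 55 among unopposed genes and 3 to 21 without a replicate, and the members among them 0 throughout. The cause of these shifts was not tested. The fit among unopposed genes holds fewer genes, and those without a replicate hold fewer samples. No paired analysis was possible because the libraries form 1 group. Depth limits Oaz2, which rests on 87 counts, and Dohh, on 161.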
